A study of Mus musculus with 12 samples.

Results

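The genes described here are the ligands and receptors of the semaphorin and ephrin systems of axon guidance. They were chosen by symbol alone as every semaphorin of classes 3 to 7, plexin, neuropilin, Eph receptor and ephrin in the total RNA table, which gave 53 of 49489 gene rows. The series sequenced RNA from a pulldown of Gas5, a long noncoding RNA, in primary hippocampal neurons taken from mice at postnatal day 0 and grown for 16 days in vitro. The groups are called antisense and sense, with 3 total RNA libraries each, and share mouse age, tissue and culture time. The labels give no strain, sex, genotype or treatment, and leave unstated which group was the capture and which the control. Separate cultures are not mentioned for the 3 libraries of a group either, so the spread behind each p-value may be technical. Differences are given as antisense minus sense.

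Semaphorins are secreted or membrane-bound cues that steer growing axons and later shape dendrites and synapses. Plexins are their receptors, and secreted class 3 semaphorins mostly need a neuropilin as co-receptor. Eph proteins form a large family of receptor tyrosine kinases, whose ephrin ligands are held on the cell surface by a lipid anchor (ephrin-A) or a transmembrane segment (ephrin-B) and can signal back into the cell that carries them. In the hippocampus both systems are known for guiding axons and for regulating dendritic spines.

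On the TMM scale, which sets libraries so that most genes do not differ, 1 guidance gene was higher in the antisense libraries, the receptor gene Epha1, and 5 were lower by modest amounts. The lower genes were the plexins Plxnd1, Plxna4 and Plxnb2, the receptor gene Ephb6 and the semaphorin gene Sema6b, with log2 fold changes from -0.59 to -0.27. Epha1 and Plxnd1 passed whichever library was left out, and the other 4 did not. With sense counts of 1, 1 and 0, Epha1 passed the filter on low counts only through its antisense libraries. The directions of the 5 depend on how Gas5 is handled. On library totals that include it, used without TMM, all 48 tested guidance genes had a positive log2 fold change. With TMM, or on totals without Gas5, the 5 stayed negative.

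The promoter windows of Epha1 and Plxnd1 are shown because these genes passed in opposite directions and kept their calls without any 1 library. Each window runs from 250 bases before to 50 bases after a start in the RefSeq promoter table (GRCm38.p6), 5′ to 3′ on the gene's strand. For both genes that start lies inside the gene span given by RefSeq, not at its outer end. Both genes lie on the minus strand, with windows at chr6:42373219-42373518 for Epha1 and chr6:115994956-115995255 for Plxnd1. Capitals mark GC boxes (GGGCGG on either strand, which the factor Sp1 binds).
Epha1: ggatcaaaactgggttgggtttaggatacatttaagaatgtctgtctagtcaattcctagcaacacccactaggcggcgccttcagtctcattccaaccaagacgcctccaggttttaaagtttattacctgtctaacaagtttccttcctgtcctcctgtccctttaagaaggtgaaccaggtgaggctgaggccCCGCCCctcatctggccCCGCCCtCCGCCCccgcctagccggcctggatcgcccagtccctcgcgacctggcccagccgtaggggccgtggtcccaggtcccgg
Plxnd1: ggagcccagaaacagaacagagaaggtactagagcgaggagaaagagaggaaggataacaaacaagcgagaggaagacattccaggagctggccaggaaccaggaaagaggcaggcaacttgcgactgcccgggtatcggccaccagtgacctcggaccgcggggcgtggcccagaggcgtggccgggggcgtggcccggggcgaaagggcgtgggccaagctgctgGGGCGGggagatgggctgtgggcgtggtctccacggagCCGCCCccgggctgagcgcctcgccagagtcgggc
The Epha1 window held 3 GC boxes and 14 CpG dinucleotides at 58.0% G and C, and the Plxnd1 window held 2 GC boxes and 23 CpG dinucleotides at 67.0%. Neither held TATAA on either strand. A GC box was present in 46 of 61 windows of guidance genes (75.4%), which cover 47 of the 53 genes, and in 35.7% of all 32851 windows of the table. Median CpG counts were 20 in the guidance windows and 7 in all windows. The full set also holds noncoding genes, and some genes have several windows, so the contrast is not with protein-coding genes alone. A match describes letters only, and no binding was measured.

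Total RNA libraries held 5775052 to 10424167 counts. Gas5 took 9.71% to 14.2% of the antisense counts and 32.7% to 57.1% of the sense counts. Without Gas5 the antisense libraries kept 5148971 to 5399527 counts and the sense libraries 4092306 to 4469297. Guidance genes made up 0.363% to 0.377% of those remaining counts in antisense and 0.403% to 0.421% in sense, and the groups did not overlap. Of the 53 genes, 48 passed the filter on low counts and 5 did not. The edgeR quasi-likelihood test was fitted to all 20049 genes that passed, and adjusted p-values are Benjamini-Hochberg values over all of them.

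Among the 48 tested guidance genes, 1 was higher (2.08%), 5 were lower (10.4%) and 42 did not pass. Over all tested genes, 18.2% were higher and 4.35% lower. Among protein-coding genes, which all 53 are, 9.66% were higher and 4.78% lower, and among protein-coding genes with a mean of 10 CPM (counts scaled to a fixed library size) or more, 6.26% and 6.4%. The median log2 fold change of the tested guidance genes was -0.18, with 40 below 0 (83.3%) and 8 above. Shares below 0 were 51.6% of all tested genes, 60.9% of protein-coding genes and 69.9% of protein-coding genes at 10 CPM or more. The median of all tested genes was -0.01, that of protein-coding genes -0.07 and that of protein-coding genes at 10 CPM or more -0.10. Those 48 passed the filter on counts in the same libraries, and their medians are given as a description. For 15 of the 48 (31.3%) all antisense libraries lay below all sense libraries, against 13.2% of all tested genes, 15.8% of protein-coding genes and 20.3% of those at 10 CPM or more. The opposite held for 2 guidance genes, Epha1 and Plxnc1, against 23.4% of all tested genes, 14.5% of protein-coding genes and 9.84% of those at 10 CPM or more. Not all of the 48 reach 10 CPM. The 35 that do had a median of -0.16, with 88.6% below 0, 0 higher and 5 lower (14.3%). In 31.4% of the 35 all antisense libraries lay below all sense libraries, and in 2.86% above.

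**Figure D1:**
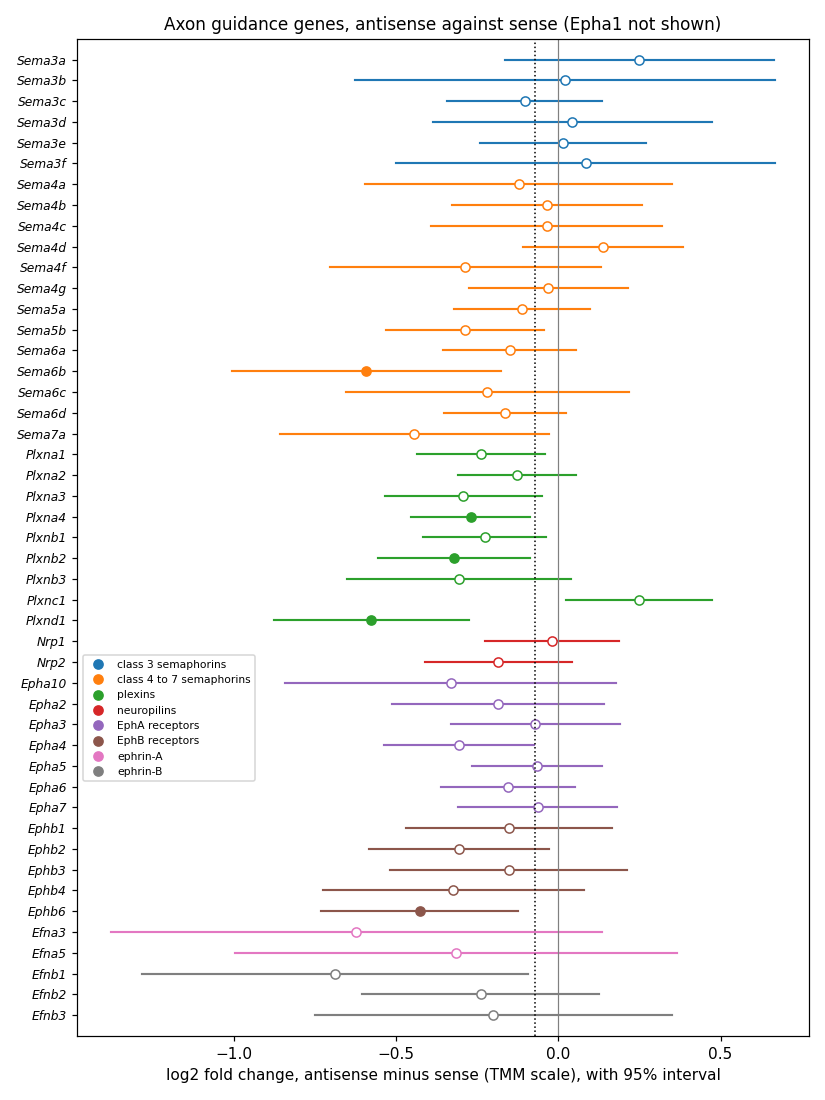
Log2 fold change (antisense minus sense, TMM scale) of 47 tested guidance genes by class, with 95% intervals as lines; filled points passed the edgeR test and the dotted line is the median of protein-coding genes. Epha1, at 5.36, lies off the axis and is left out; most points lie between -0.45 and 0.

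Epha1 encodes a receptor for ephrin-A ligands that is known mainly from epithelial tissues. Its row held 39, 30 and 48 counts in antisense replicates 1, 2 and 3 and 1, 1 and 0 counts in the sense libraries. All 3 antisense libraries therefore lay far above all 3 sense libraries. A row with so few sense counts passes the filter on low counts only through its antisense libraries. On the TMM scale it averaged 5.14 ± 1.29 CPM (SD, n = 3) in antisense against 0.105 ± 0.0906 CPM (SD, n = 3) in sense. The scaled ratio of the summed counts, 117 against 2, was 47.6 (95% exact interval 12.9 to 397, for counting error only), with an edgeR adjusted p = 4.90e-06. Leaving out any 1 library kept the adjusted p between 1.68e-05 and 6.48e-05. In the authors' deposited table the adjusted p of Epha1 was 1.64e-05, with a log2 fold change of -5.56 for sense over antisense.

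Epha1 lies on chromosome 6 from 42358487 to 42373314 (GRCm38.p6, minus strand), and other annotated genes overlap both of its ends. The gene of the focal adhesion protein zyxin, Zyx, runs on the plus strand from 42349511 to 42360213 and shares 1727 bases with the downstream end of Epha1. Zyx stood at 20.7 ± 1.82 CPM in antisense against 20.8 ± 5.24 CPM in sense, with a log2 fold change of -0.01 (SE 0.169, with an edgeR adjusted p = 0.974). The noncoding gene 2010310C07Rik shares 2644 bases with the upstream end and was not tested, at 20 counts in antisense and 14 in sense. Whether counting used strand is not stated, so reads of Epha1 and of partners on the other strand may not be told apart. Their part in the difference was not tested.

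The other EphA receptors showed no such gap. Epha4, which binds ephrins of both classes, stood at 129, 123 and 107 CPM in antisense and 168, 145 and 132 CPM in sense. All its sense libraries lay above all its antisense libraries, by a small margin. Its log2 fold change was -0.31 (SE 0.108, with an edgeR adjusted p = 0.0565), just short of the threshold. Epha5, a receptor abundant in forebrain, differed by -0.07 on the log2 scale (SE 0.0932), and its groups overlapped. Epha6 had one of -0.16 (SE 0.0966; adjusted p = 0.29), with all antisense libraries below the sense libraries. Epha8 was not tested, at 36 counts in antisense and 28 in sense. Epha2, Epha3, Epha7 and Epha10 had log2 fold changes between -0.33 and -0.06, and none passed.

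Plxnd1, the receptor of semaphorin 3E, was the plexin with the smallest p. It stood at 16.0, 17.2 and 13.5 CPM in antisense replicates 1 to 3 and at 25.6, 22.3 and 21.9 CPM in the sense libraries. The groups did not overlap. The difference was a log2 fold change of -0.58 (SE 0.14, 95% interval -0.88 to -0.28; edgeR adjusted p = 0.00648), that is 1.49-fold. Leaving out 1 library gave -0.66 to -0.49 and adjusted p-values of 0.00678 to 0.0339. Unscaled, its row held 122, 134 and 101 counts in antisense and 162, 143 and 128 in sense, where the groups overlapped. Sema3e, its ligand, had a log2 fold change of 0.01 (SE 0.119), with overlapping groups at 24.5 to 27.0 CPM in antisense and 22.9 to 27.0 CPM in sense.

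Plxna4, which with neuropilins transmits semaphorin 3A and also binds class 6 semaphorins, stood at 121, 121 and 118 CPM in antisense and 152, 138 and 144 CPM in sense. The groups did not overlap, and the antisense libraries lay close together. Its log2 fold change was -0.27 (SE 0.0858, with an edgeR adjusted p = 0.0333). Plxnb2, a receptor of class 4 semaphorins, stood at 190, 169 and 170 CPM in antisense and 253, 187 and 221 CPM in sense. Here antisense replicate 1 lay above sense replicate 2, so the groups overlapped. Its log2 fold change was -0.32 (SE 0.11, with an edgeR adjusted p = 0.0474). Both calls were kept without sense replicate 2 and lost without each of the other 5 libraries in turn. The adjusted p ranged from 0.0337 to 0.114 for Plxna4 and from 0.00747 to 0.204 for Plxnb2.

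Of the 9 plexins, 3 were lower (33.3%) and the other 6 did not pass, at a median of -0.27 on the log2 scale. Of protein-coding genes with a mean of 10 CPM or more, as all 9 are, 6.4% were lower. Plxnb1, the receptor of semaphorin 4D, stood at 287, 270 and 301 CPM in antisense and 336, 319 and 350 CPM in sense. Its groups did not overlap, and it did not pass (log2 fold change -0.23, SE 0.0882, with an edgeR adjusted p = 0.082). Plxna2 had a log2 fold change of -0.13 (SE 0.0846). Chosen after their values were seen, Plxna1 and Plxna3 had log2 fold changes of -0.24 and -0.29 with adjusted p-values of 0.0818 and 0.0804. Plxnc1, the receptor of semaphorin 7A and also chosen after its values were seen, differed in sign from the other 8. It stood at 54.6, 49.8 and 48.6 CPM in antisense and 47.9, 40.5 and 40.4 CPM in sense, without overlap, and did not pass (log2 fold change 0.25, SE 0.105, with an edgeR adjusted p = 0.114). Sema7a, the ligand of Plxnc1, had a log2 fold change of -0.44 (SE 0.194, with an edgeR adjusted p = 0.125), and all its antisense libraries lay below the sense libraries. The summed level of the 9 plexins was 1104 ± 17.7 CPM (SD, n = 3) in antisense against 1286 ± 70.5 CPM (SD, n = 3) in sense, a ratio of 0.858 without overlap.

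**Figure D2:**
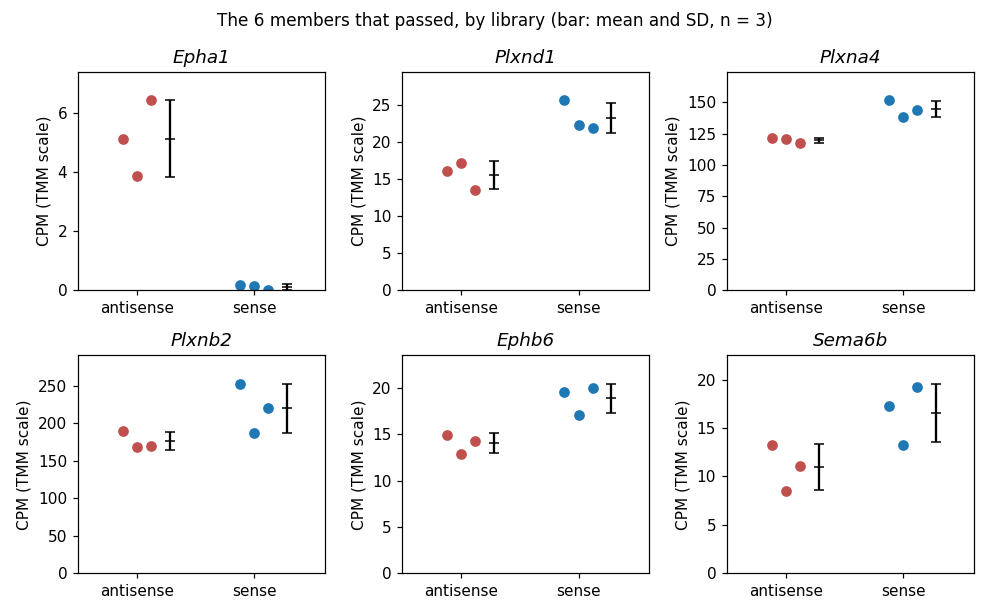
CPM on the TMM scale in each of the 3 antisense (red) and 3 sense (blue) libraries for the 6 guidance genes that passed, with mean and SD as bars beside the points. Epha1 is at or near 0 in sense, while the other 5 differ by 1.21-fold to 1.51-fold, with overlap for Plxnb2 and Sema6b.

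Among membrane-bound and other semaphorins of classes 4 to 7, 1 of 13 was lower and 12 did not pass (median log2 fold change -0.15). Of tested protein-coding genes 4.78% were lower, and 6.4% of those with a mean of 10 CPM or more. The lower gene was Sema6b, which encodes a transmembrane ligand of plexin-A4. It stood at 13.3, 8.48 and 11.1 CPM in antisense and 17.2, 13.2 and 19.2 CPM in sense. Antisense replicate 1 and sense replicate 2 had nearly the same value, so the groups overlapped slightly. Its log2 fold change was -0.59 (SE 0.193, with an edgeR adjusted p = 0.0389). The call was kept without antisense replicate 1 or sense replicate 2 and lost without each of the other 4 libraries, with adjusted p-values of 0.0119 to 0.156. Sema6d, Sema5a and Sema6a, transmembrane semaphorins, had log2 fold changes of -0.17 (SE 0.088), -0.11 (SE 0.0983) and -0.15 (SE 0.0958), and none passed. Their 95% intervals all reached 0. The 9 remaining genes of these classes had log2 fold changes between -0.44 and 0.14.

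Class 3 semaphorins, the secreted ligands that mostly act through neuropilins, did not lean lower. None of the 6 tested passed, 5 had positive log2 fold changes and the median was 0.03. Sema3c, at 35.1, 38.7 and 30.9 CPM in antisense and 38.6, 38.2 and 35.8 CPM in sense, had a log2 fold change of -0.10 (SE 0.112). Sema3d had one of 0.04 (SE 0.201), and Sema3a, the classical growth cone collapsing factor, one of 0.25 (SE 0.194, with an edgeR adjusted p = 0.41). Sema3g was not tested, at 1 count in antisense and 2 in sense. The difference between class 3 and the other semaphorins was not tested. The neuropilin genes did not pass either. Nrp1, the co-receptor of semaphorin 3A, stood at 137, 143 and 119 CPM in antisense and 128, 143 and 134 CPM in sense, with a log2 fold change of -0.02 (SE 0.0962, 95% interval -0.23 to 0.19). Nrp2, which serves other class 3 semaphorins, had one of -0.19 (SE 0.106, with an edgeR adjusted p = 0.247).

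**Figure D3:**
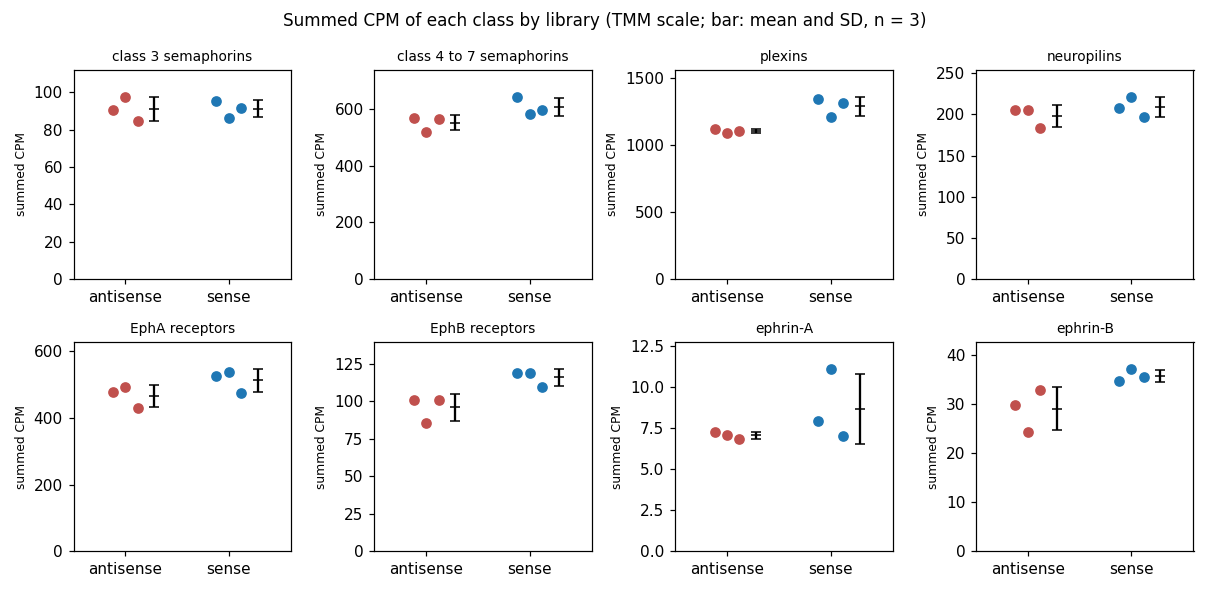
Summed CPM (TMM scale, axes from 0) of each class in the 3 antisense (red) and 3 sense (blue) libraries, with mean and SD as bars. Plexins, class 4 to 7 semaphorins, EphB receptors and ephrin-B lie lower in all antisense libraries, while class 3 semaphorins, neuropilins, EphA receptors and ephrin-A overlap.

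All 5 EphB receptor genes had negative log2 fold changes, from -0.43 to -0.15, and 1 passed. Of protein-coding genes with a mean of 10 CPM or more, as all 5 are, 69.9% were below 0 and 6.4% were lower. The gene that passed was Ephb6, which encodes a receptor without kinase activity. It stood at 14.99, 12.8 and 14.3 CPM in antisense and 19.6, 17.1 and 20.04 CPM in sense, without overlap. Its log2 fold change was -0.43 (SE 0.142, with an edgeR adjusted p = 0.0427). The call was kept without sense replicate 2 and lost without each of the other 5 libraries, with adjusted p-values of 0.029 to 0.126, and DESeq2 did not call it (adjusted p = 0.112). Ephb2, a receptor known for its role at excitatory synapses, had a log2 fold change of -0.31 (SE 0.13, with an edgeR adjusted p = 0.112) with overlapping groups. Ephb1 had one of -0.15 (SE 0.148).

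No ephrin gene passed, and ephrin-A genes gave few counts. Of 5 ephrin-A genes only Efna3 and Efna5 were tested, with log2 fold changes of -0.62 (SE 0.354) and -0.32 (SE 0.318). Efna1, Efna2 and Efna4 had 14, 14 and 29 counts in antisense and 10, 17 and 19 in sense. Among ephrin-B genes, which encode transmembrane ligands, Efnb1 had 37, 20 and 32 counts in antisense and 33, 46 and 38 in sense. Its groups did not overlap after scaling (log2 fold change -0.69, SE 0.278, with an edgeR adjusted p = 0.0963). Efnb2, at 423 counts in antisense and 407 in sense, differed by -0.24 (SE 0.171) and Efnb3 by -0.20 (SE 0.257) on the log2 scale, both with overlapping groups. For 40 of the 42 guidance genes that did not pass, the 95% interval of the log2 fold change lay within -1 to 1. Efna3 and Efnb1 had wider intervals, so for them a difference beyond 2-fold lies within the interval at this depth.

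Some noncoding rows within or beside guidance genes were higher in antisense. All 3 rows named as opposite-strand RNAs of Plxna4 were higher in antisense, as were 45.6% of all tested long noncoding RNA genes. The 3 rows passed the filter on low counts only through their antisense libraries, so this count is a description. Plxna4os2 held 133, 165 and 98 counts in antisense and none in sense, at least 107-fold higher against a floor of 3 counts over the sense group (edgeR adjusted p = 1.52e-07). Plxna4os3 held 10 counts in each antisense library and none in sense, at least 8.13-fold higher. Plxna4os1, at 32511141 to 32515576 within the Plxna4 span on chromosome 6, held 26, 28 and 42 counts against 2, 0 and 4, with a log2 fold change of 3.63 (SE 0.559, with an edgeR adjusted p = 0.000137). Plxna4 itself was lower in the same libraries, as given above. Positions of Plxna4os2 and Plxna4os3 are not given in the RefSeq table.

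Over all guidance genes, 23 rows of the count table overlapped the span of 18 of them, and 8 of these rows were tested. Of the 8, 6 were higher, all long noncoding RNAs, and Zyx and the pseudogene Gm4660 in Epha6 (log2 fold change -0.29) did not pass. Most of the 6 had so few sense counts that they passed the filter only through the antisense group, so the count of higher rows is a description. The other 15 rows were not tested, among them Mir6352 in Epha4, with 23 counts in each group. Among all tested genes, 45.6% of the long noncoding RNA genes were higher. Sema6d held 2 of them: 4930583P06Rik, from 124217679 to 124222358 on chromosome 2, gathered 200 counts over the antisense libraries against 2, or 81.3 times as many once scaled (95% exact interval 22.2 to 676). 4930517E11Rik, from 124123636 to 124129956, had 101 and 1, a ratio of 82.1 (14.4 to 3275). Gm9017, at the upstream end of Epha6, had 76 and 1, a ratio of 61.8 (10.8 to 2472). The edgeR adjusted p-values were 7.82e-07, 7.39e-06 and 3.05e-05. Smaller differences were found for Gm15998 in Efna3 (log2 fold change 1.58, SE 0.447, with an edgeR adjusted p = 0.0175) and Gm7628 at the start of Plxnb1 (1.23, SE 0.344; adjusted p = 0.0165). Gm15998 lost its call without antisense replicate 1 (adjusted p = 0.0638), sense replicate 1 (0.138) or sense replicate 3 (0.0825) and with DESeq2 (0.141). Gm7628 lost its call without antisense replicate 1 (0.0557) or 3 (0.0691) or sense replicate 1 (0.0638) or 3 (0.0756). The tested rows and these overlaps were chosen after the data were seen, except the rows named os.

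The 5 guidance genes overlapped by a higher row, Efna3, Epha6, Plxna4, Plxnb1 and Sema6d, had log2 fold changes of -0.62 to -0.16, and Plxna4 alone passed. For each of the 5, all antisense libraries lay below all sense libraries. That held for 31.3% of all tested guidance genes, 15.8% of protein-coding genes and 20.3% of those with a mean of 10 CPM or more. A link between these genes and the rows that overlap them was not tested. Strand was given for both partners in 4 of the 6 pairs, and the partners then lay on opposite strands: Sema6d and Plxnb1 on the plus strand with their rows on the minus strand, and Efna3 on the minus strand with its row on the plus strand.

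**Figure D4:**
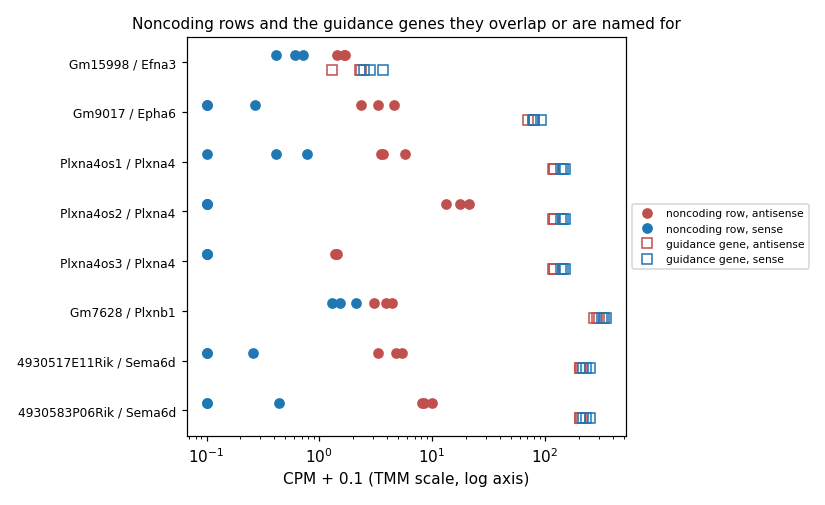
CPM plus 0.1 (TMM scale, log axis) of noncoding rows (filled circles) and of the guidance genes they overlap or are named for (open squares), in each antisense (red) and sense (blue) library. Rows were drawn because they passed as higher, and all their antisense points lie right of their sense points; the squares of each guidance gene lie slightly left in antisense.

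The modest differences change direction on library totals that include Gas5 and carry no TMM or RLE factors. With RLE factors the same 5 genes were lower, and when Gas5 was removed before TMM 4 were lower, Plxnb2 missing the threshold. On totals without Gas5 and without TMM, an alternative chosen after the data were seen, Plxna4, Plxnd1 and Sema6b were lower. On totals that include Gas5, without TMM or RLE factors, no guidance gene was lower and 22 were higher. The median log2 fold change was then 0.55 against 0.70 for all tested genes. The median of the guidance genes minus that of all tested genes, noncoding ones included, was -0.16 on the TMM scale and -0.16 on those totals. Among genes with a mean of 10 CPM or more, the TMM-scale medians lay closer, at -0.16 for guidance genes and -0.10 for protein-coding genes. Epha1 was higher under each of these scalings.

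**Figure D5:**
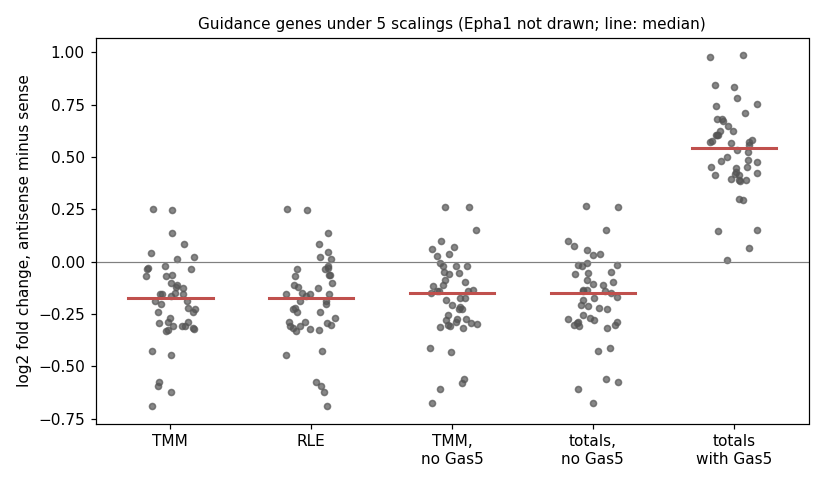
Log2 fold change (antisense minus sense) of each tested guidance gene under 5 scalings, with Epha1 left out of the points and the median as a line. Points centre near -0.18 to -0.15 except on totals that include Gas5 without TMM or RLE factors, where all lie above 0.

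Markers of neurons and astrocytes had negative log2 fold changes, as most guidance genes did, and the 3 microglia markers tested had positive ones. Of all tested protein-coding genes, 60.9% were below 0, 4.78% were lower and 9.66% were higher. At a mean of 10 CPM or more these shares were 69.9%, 6.4% and 6.26%. Of 6 general neuronal markers all had negative log2 fold changes and 1, the synapsin gene Syn1, was lower, and their summed level was 735 to 922 CPM in antisense and 926 to 1147 CPM in sense. Of 6 astrocyte markers all were negative and 1, Aldh1l1, was lower, with sums of 938 to 1167 and 1057 to 1380 CPM. Excitatory markers (3 of 3 negative, 1 lower; 205 to 267 and 285 to 408 CPM), interneuron markers (3 of 3 negative, none lower; 85.2 to 120 and 119 to 163 CPM) and vascular and fibroblast markers (4 of 5 tested negative, none lower; 48.7 to 50.2 and 52.0 to 61.8 CPM) were mostly negative too. Oligodendrocyte lineage markers were mixed, with 4 of 6 negative, none passing and sums of 318 to 341 and 340 to 442 CPM. Mog (0.97) and Olig2 (0.25) had all antisense libraries above all sense libraries. Mog held 17, 11 and 11 counts in antisense and 3, 8 and 5 in sense, and passed the filter on low counts only through antisense. Microglia markers stood at 17.6 to 21.4 CPM in antisense and 9.08 to 12.02 CPM in sense, and all 3 tested were positive. P2ry12, a microglial receptor gene, was the 1 that was higher, at 91 counts in antisense and 2 in sense (log2 fold change 4.99, with an edgeR adjusted p = 2.18e-05). The P2ry12 row passed the filter on low counts only through its antisense libraries. Of the 3 markers not tested, Tmem119 held 5 counts in antisense and 4 in sense, Aif1 33 and 17, and C1qa 38 and 20. No listed marker was at 0 in every library, and in bulk samples fewer cells of a type and less RNA per cell cannot be told apart. The part of cell composition in the results was not tested.

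Other guidance genes and signalling partners had similar medians. For comparison, 4.78% of tested protein-coding genes were lower, and 6.4% of those with a mean of 10 CPM or more. Of 26 netrin, Slit and repulsive guidance genes and their receptors and effectors, 24 were tested, 2 were lower and none was higher (median log2 fold change -0.19). The Robo ligand genes Slit3 (-0.39, SE 0.123, with an edgeR adjusted p = 0.0334) and Slit1 (-0.51, SE 0.175; adjusted p = 0.0488) were lower, and the netrin receptor gene Unc5b did not pass (-0.76, SE 0.274). Both Slit calls were kept without antisense replicate 2 or sense replicate 2 and lost without each of the other 4 libraries, with edgeR adjusted p-values up to 0.205 for Slit1 and 0.131 for Slit3. Slit1 also missed the threshold with RLE factors (0.054) and with Gas5 removed before TMM (0.0651), and Slit3 with DESeq2 (0.0526). Of 23 semaphorin signalling partners, all tested, Dpysl3, which encodes a collapsin response mediator protein, was lower (-0.36, SE 0.116, with an edgeR adjusted p = 0.0388), and Chl1 (-0.33) and Dpysl5 (-0.36) did not pass (list median -0.20). Dpysl3 lost its call without antisense replicate 1 (0.0597) or 3 (0.132) or sense replicate 1 (0.203), and with Gas5 removed before TMM (0.0561). Of 19 Eph and ephrin partners, all tested, Ngef, which encodes the Eph-associated exchange factor ephexin-1, was lower (-0.45, SE 0.146, with an edgeR adjusted p = 0.039), and Sipa1l1 (-0.18) and Src (-0.27) did not pass (list median -0.14). Ngef kept its call only without antisense replicate 3 or sense replicate 1 among the 6 libraries left out in turn (edgeR adjusted p up to 0.127), and DESeq2 did not call it (0.0702).

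By the authors' deposited table, 5 guidance genes had an adjusted p below 0.05, of which 4 are also called here. The authors' deposited table had Epha1 lower and Plxna4 (log2 fold change 0.28), Plxnb1 (0.24), Plxnb2 (0.33) and Plxnd1 (0.59) higher in sense over antisense. Plxnb1 is called in the authors' deposited table alone, at an adjusted p of 0.0277. Ephb6 and Sema6b did not pass there, at 0.164 and 0.0919.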

How the data were processed

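Total RNA counts deposited by the authors are estimated counts per gene symbol, not normalized. The submitters' processing notes name Salmon, DESeq and GRCm38, without roles or versions. Strand handling is not stated. The authors' deposited comparison table gives a mean normalized signal, a log2 fold change with its error, a p-value, raw and adjusted, for each gene, and was read side by side only. Small RNA files were not used.

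Estimated counts were rounded. Rows were kept by filterByExpr (minimum count 10), scaled by TMM and tested with edgeR 4.0.16 (quasi-likelihood, two-sided, antisense minus sense, no other term) in R 4.3.3, with Benjamini-Hochberg adjustment over all kept genes at 0.05. CPM uses TMM-effective library sizes. The standard error is the log2 fold change over the square root of F, and intervals are at 95%. For a group with no count in any library, a floor of 3 counts over the group was used. PCR copies were not collapsed by molecular identifiers, so ratio intervals and floors cover counting error only. CPM is not per length, so levels of different genes were not compared.

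The steps were tested on simulated counts with known changes. Replicate libraries differed beyond sampling noise (chi-square over its degrees of freedom 2.84 to 7.96). Alternatives were library totals, RLE factors, Gas5 left out, other filters, DESeq2 1.42.0, a replicate block and leaving out each library. Genes named are those that passed, the 3 with the highest mean CPM and the 1 with the smallest p in each of 8 classes, those not tested, up to 3 per partner list by p and rows named os. Members and lists were chosen with earlier results of these data known. Positions and promoter windows are from RefSeq (GRCm38.p6), matched by symbol for 53 and 47 of the 53 genes.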

Additional observations from a re-analysis of the deposited data

How the results depend on the processing

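Epha1 stayed higher under every alternative that tested it. Plxnd1 stayed lower under each except library totals that include Gas5 and carry no TMM or RLE factors. On those totals 12804 genes were higher and 62 lower, 22 guidance genes were higher and 0 lower, and the guidance median was 0.55. Log2 fold changes that turned positive there were 0.15 for Sema6b, 0.30 for Ephb6, 0.45 for Plxna4, 0.42 for Plxnb2 and 0.15 for Plxnd1, all without passing. Others turned positive and passed: 0.60 for Sema3c, 0.56 for Sema6d, 0.61 for Sema5a, 0.57 for Sema6a, 0.63 for Epha5, 0.53 for Epha6, 0.57 for Ephb1, 0.67 for Nrp1, 0.52 for Nrp2, 0.58 for Plxna2, 0.54 for Sipa1l1 and 0.71 for Zyx. Slit3 (0.35), Slit1 (0.24), Dpysl3 (0.37) and Ngef (0.25) turned positive without passing. Gas5 lies in those totals, and leaving it out gave 3 lower guidance genes.

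A minimum count of 50 tested 39 guidance genes and not Epha1, with 1795 genes higher, 402 lower, 0 guidance genes higher, 1 lower and a median of -0.13. Leaving out 1 library gave 492 to 1100 lower genes and 1 to 6 lower guidance genes: 2 whichever antisense library was absent, and 1, 6 and 2 in the absence of sense replicate 1, 2 and 3. Some of these did not pass with all libraries: Plxna3 (without antisense replicate 2 or sense replicate 2), Ephb2 (without antisense replicate 3) and Epha4 (without sense replicate 3). The cause was not tested. Deviations of same-numbered libraries correlated at 0.05, -0.06 and -0.01, and those of differently numbered ones at -0.13 to 0.14. These values cannot tell whether libraries of the same number came from 1 culture, which the labels do not give. With a replicate block 4 guidance genes were lower and 1 higher, the median was -0.17, and 3428 genes were higher and 695 lower. Ephb6, Plxna4, Slit1, Slit3, Ngef and Gm15998 missed the threshold with the block and Epha4 passed it.

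Low counts kept 3 of 5 ephrin-A genes, Epha8 and Sema3g out of the test. No group had enough libraries for an exact permutation test of a single gene to pass.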

Other observations

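Within the sense group, Gas5 took its largest share in replicate 1 and its smallest in replicate 2. Of the 48 tested guidance genes, 12 (25%) had CPM in that same order over the 3 sense libraries, against 18.7% of all 20049 tested genes. Plxnb2 and Plxna4 were among them, and Plxnd1, Ephb6 and Sema6b were not.

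TATAA was found on either strand in 4 of 61 promoter windows of guidance genes (6.56%) and in 24.9% of all windows of the table, which also holds noncoding genes. Median G and C content was 64.0% and 52.7%. Some genes have several windows, and windows of a gene share sequence.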
